A study of Homo sapiens with 12 samples.

Results

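The genes described here are 10 of the discriminating genes of the class assay for uveal melanoma, a tumour of the pigment cells of the eye. ECM1, HTR2B and RAB31 are the 3 that are higher in class 2 tumours, and EIF1B, FXR1, LMCD1, LTA4H, MTUS1, ROBO1 and SATB1 are the 7 that are lower. They were taken by name, out of 18132 genes with a probe set of their own, and each was followed on its brightest probe set that names a single gene. Of the 10, 9 passed the filter on low signals that left 12715 genes to test, and HTR2B did not.

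As background, the assay reads a few mRNAs of a biopsy and sorts tumours into class 1, with a low risk of metastasis, and class 2, with a high one. Class 2 tumours have commonly lost a copy of chromosome 3 and the function of the tumour suppressor BAP1. In the array annotation and RefSeq, EIF1B, FXR1, LMCD1, ROBO1 and SATB1, that is 5 of the 7 class 2-low genes, lie on chromosome 3, LTA4H on chromosome 12 and MTUS1 on chromosome 8. The assay is made for tumours, and a level in a culture is not a class call.

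The study put 12 samples of the human uveal melanoma lines MUM2B and OCM1 on Affymetrix PrimeView arrays, with 3 arrays in each of 4 groups. The groups were wild type MUM2B, MUM2B overexpressing the long noncoding RNA CANT1 (also called CASC15-NT1), wild type OCM1, and OCM1 overexpressing CANT1. The comparison asks what the RNA changes in each line. The controls are labelled wild type for replicate 1 and only control for replicates 2 and 3, and all are called wild type here. The labels describe no empty vector, so whether the controls carried it is not known. Replicate 1 of the CANT1 cells was selected with puromycin, and the labels of replicates 2 and 3 give only DMEM with 10% serum for all groups. The labels do not say whether replicates were separate cultures, so the p-values measure only the spread between these arrays, which may be technical.

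OCM1 carried the pigment cell programme and MUM2B largely did not. All 7 melanocyte markers on the array reached a signal of 100 on every OCM1 array, and their summed signal was 14220 to 76990 in wild type and 75700 to 81560 in CANT1 cells. On MUM2B arrays 4 of the 7 (MITF, PMEL, TYR and SOX10) reached 100 and MLANA, TYRP1 and S100B did not, with a summed signal of 620.3 to 829.3 in wild type and 640.9 to 733.5 in CANT1 cells. SOX10 overlapped between the lines, through wild type OCM1 replicate 1. Of the 5 epithelial markers, KRT8, KRT18 and KRT19 ran the other way. CLDN4 overlapped between the wild type groups, and EPCAM lay under a signal of 100 on every array. The sums of the 5 were 16130 to 23720 in wild type MUM2B and 18440 to 22990 in CANT1 MUM2B. In OCM1 they were 1980 to 2089 and 1916 to 2383. The sum of the 5 endothelial markers was led by CDH5 in MUM2B (2795 to 5110 over both groups, against 431 to 551.7 in OCM1). PECAM1, VWF, KDR and TEK overlapped between the lines. The fibroblast marker sum was 460.5 to 1694 in wild type OCM1, against 295.4 to 402 in wild type MUM2B. For the retinal pigment epithelium markers it was 612.5 to 808.4, against 307.5 to 584.7. These marker differences move with every line difference below, and their part in it was not tested.

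The ACTB 3′ to 5′ ratio was 2.15 to 2.51 (log2) on the 4 arrays of replicate 1 and 0.473 to 0.911 on the other 8. The array labelled wild type OCM1 replicate 1 stands apart. It correlated at 0.828 with the other OCM1 arrays, where the other 11 arrays reached 0.936 to 0.978 within their line, and for each of the 9 tested genes it lay outside the range of the other 5 OCM1 arrays. How many of all genes lay outside in this way was not counted, so this is not read as particular to the 9 genes. For the 9 tested genes, the wild type line differences and the CANT1 differences in OCM1 are given with and without it. The array's probe set for CASC15, the host gene of CANT1, gave signals of 12.9 to 17.9 on all 12 arrays, so overexpression could not be checked here.

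The gene levels below are log2(scaled signal + 32), so fold changes are on that scale and understate the change of dim genes. A level compares the same gene between arrays, not one gene with another.

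Between the lines, 5 of the 9 tested genes were higher in OCM1 than in MUM2B and 0 were lower, in wild type and in CANT1 cells alike (limma, Benjamini-Hochberg adjusted p under 0.05). The 5 were the same in both: ECM1, RAB31, LMCD1, MTUS1 and ROBO1. ECM1 and RAB31 are class 2-high genes, and LMCD1, MTUS1 and ROBO1 are class 2-low genes, and over the 9 genes 4 differences pointed toward class 2 in OCM1, called or not. Over all genes the test called 33% in wild type (19.1% higher and 13.9% lower in OCM1) and 37.2% in CANT1 cells (21.2% higher, 16.1% lower). The median difference over the 9 genes was 1.18 in wild type and 0.98 in CANT1 cells, beside 0.06 and 0.09 over all tested genes. That median pools class 2-high with class 2-low genes. The 9 genes include ECM1 and SATB1, each of which passed the filter only through the line where it was higher. These bulk values cannot tell fewer cells with a transcript from less RNA per cell. Both line comparisons describe the lines and compare different arrays, but each shares its arrays with the CANT1 comparisons. Both also come from the same fit, with a common spread for each gene, so the SE of ECM1 was 0.57 in both. For SATB1 in CANT1 cells the difference was -2.80, with limma's adjusted p = 0.0539. Without wild type OCM1 replicate 1, which is not in that comparison, it stayed at -2.80 with limma's adjusted p = 0.0018. The p-values of the line comparisons are therefore not independent.

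**Figure D1:**
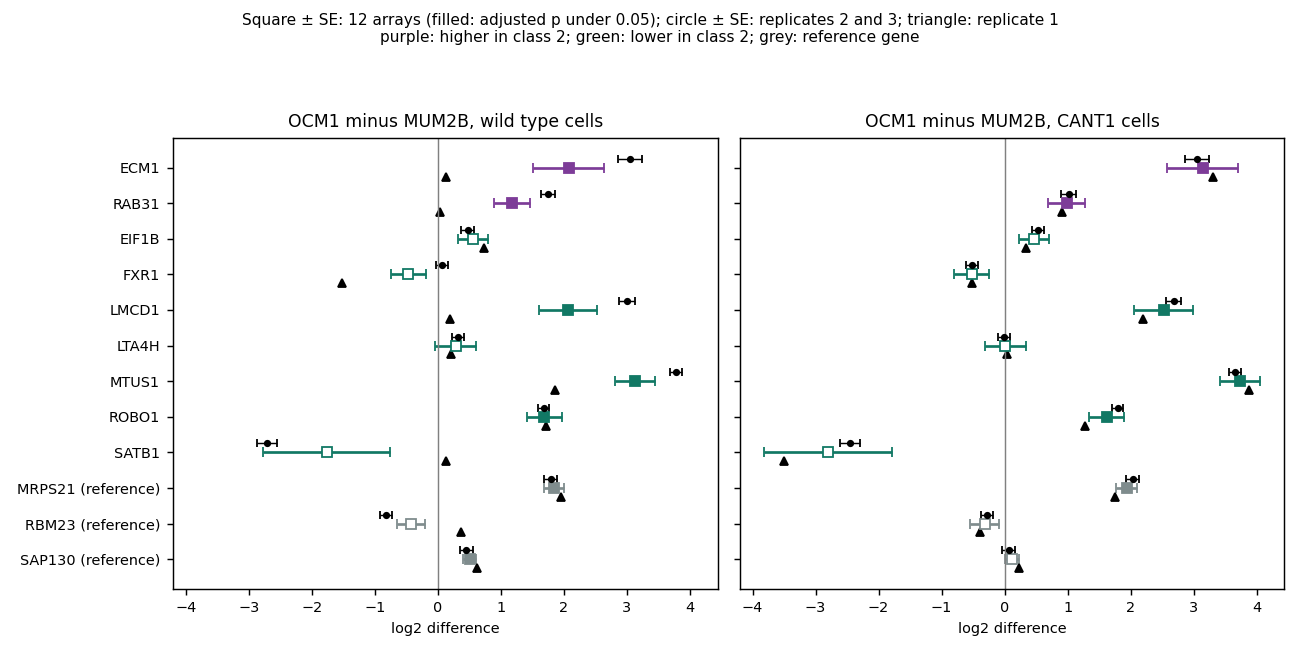
The plot gives the OCM1 minus MUM2B difference in log2 units (x axis) for each tested gene and the 3 reference genes of the assay (y axis), in wild type (left) and CANT1 cells (right), with squares ± SE for the fit on 12 arrays (filled where the adjusted p is under 0.05), circles ± SE for replicates 2 and 3 and triangles for replicate 1. MTUS1 is the furthest to the right of the 9 class genes in both panels, at 3.14 and 3.73, and in the left panel the triangles of ECM1, RAB31, LMCD1 and SATB1 lie near 0.

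The upstream sequences of ECM1, LMCD1 and RAB31 are shown because these were called higher in OCM1 in both comparisons and have a single start in the RefSeq table used (GRCh38.p14), which held 8 of the 10 genes and lacked HTR2B and MTUS1. Each is the 250 bases before the annotated start, on the plus strand, 5′ to 3′, and lies at chr1:150507859-150508108 (ECM1), chr3:8501573-8501822 (LMCD1) and chr18:9708051-9708300 (RAB31). Capitals mark matches, on either strand, to the TATA box TATAAA, the AP-1 site TGANTCA, the E-box CACGTG, the cyclic AMP response element TGACGTCA or the GC box GGGCGG.
ECM1: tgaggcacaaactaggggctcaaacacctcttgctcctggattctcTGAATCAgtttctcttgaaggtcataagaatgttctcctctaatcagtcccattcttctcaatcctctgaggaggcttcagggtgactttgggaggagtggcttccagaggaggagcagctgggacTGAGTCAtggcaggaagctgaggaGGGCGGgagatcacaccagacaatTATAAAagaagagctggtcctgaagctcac
LMCD1: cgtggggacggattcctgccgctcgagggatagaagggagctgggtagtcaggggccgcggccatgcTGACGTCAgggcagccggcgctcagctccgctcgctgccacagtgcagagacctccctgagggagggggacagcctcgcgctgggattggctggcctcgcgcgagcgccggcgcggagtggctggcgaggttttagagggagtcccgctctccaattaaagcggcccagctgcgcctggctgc
RAB31: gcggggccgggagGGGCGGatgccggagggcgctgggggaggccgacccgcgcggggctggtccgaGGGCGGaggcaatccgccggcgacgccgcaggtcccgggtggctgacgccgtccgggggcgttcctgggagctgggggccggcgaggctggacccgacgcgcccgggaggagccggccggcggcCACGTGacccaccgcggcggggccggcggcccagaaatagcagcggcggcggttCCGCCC

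The 3 windows differ in base composition. ECM1's held 50.4% G and C with 1 CpG, LMCD1's 69.6% with 24 CpG and RAB31's 82% with 40 CpG, where the median over all 35093 windows in the table was 58% and 11 CpG. ECM1's window held a TATA box 30 bases before the start, AP-1 matches 204 and 78 bases before it and a GC box at 54. LMCD1's held a response element at 183 and RAB31's an E-box at 60 and GC boxes at 237, 184 and 6. Of all windows, 10.7% held the TATA box, 6.57% the AP-1 site, 6.34% the E-box, 1.65% the response element and 42.6% the GC box. No binding was measured, and a match is only a match of letters.

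**Figure D2:**
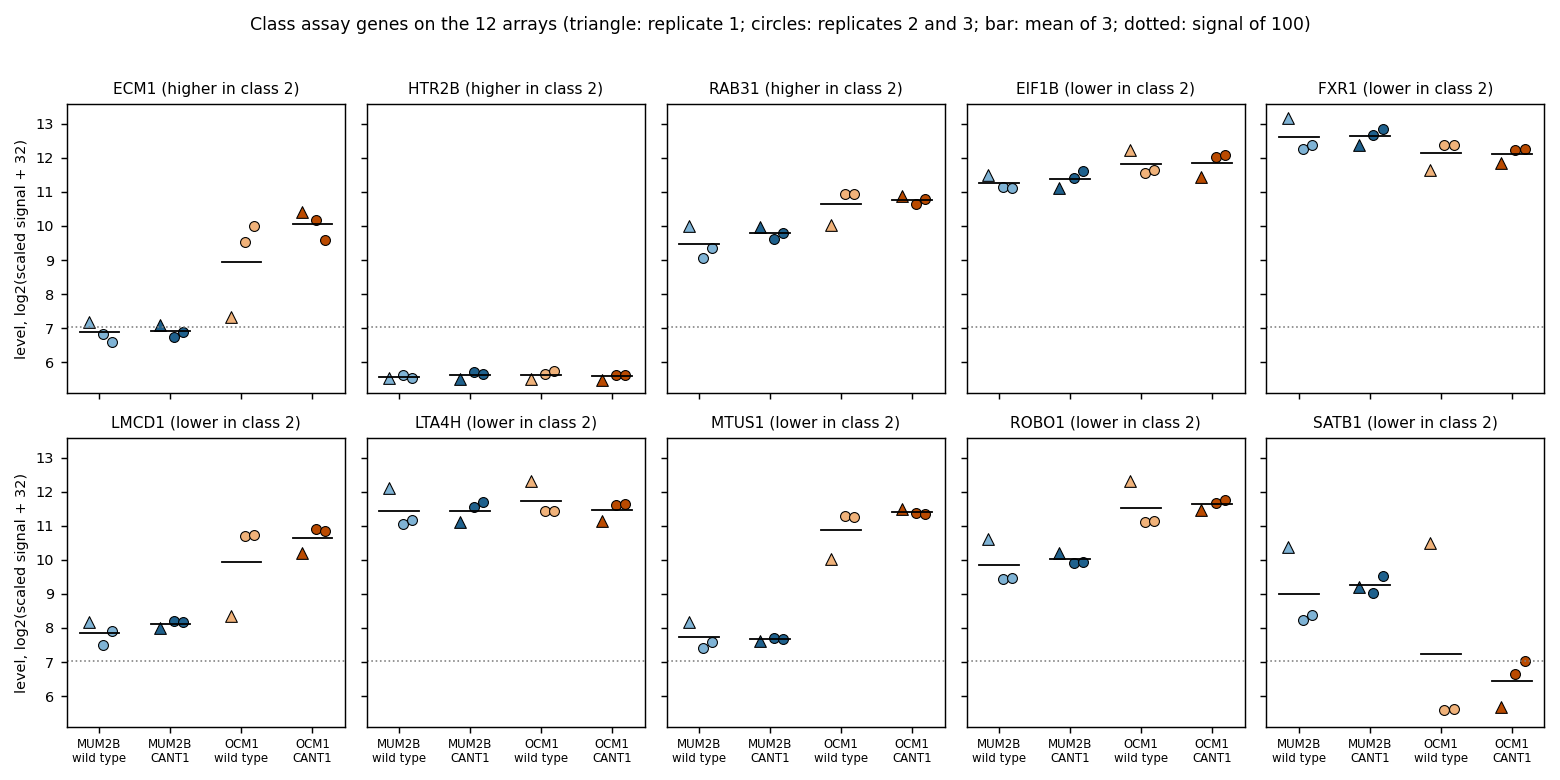
Each panel plots the level of 1 gene, log2(scaled signal + 32), on the 12 arrays by group (x axis), with a triangle for replicate 1, circles for replicates 2 and 3, a bar for the mean of 3 and a dotted line at a signal of 100. HTR2B lies under the dotted line on every array, ECM1, RAB31, LMCD1, MTUS1 and ROBO1 are higher in OCM1, and the triangle of wild type OCM1 sits away from its circles in most panels, for SATB1 at 10.50 against 5.59 and 5.61.

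ECM1, which encodes a secreted glycoprotein of the extracellular matrix, was low in MUM2B. On wild type MUM2B its level was 7.19, 6.84 and 6.60 for replicates 1, 2 and 3, and on CANT1 MUM2B 7.10, 6.74 and 6.90. On wild type OCM1 it was 7.32, 9.53 and 10.00, and on CANT1 OCM1 10.41, 10.17 and 9.59. The OCM1 arrays were all above the MUM2B arrays, with wild type OCM1 replicate 1 just above them and the other 5 well above. ECM1 reached the signal of 100 on 8 arrays (all 6 of OCM1 and replicate 1 of each MUM2B group), so it passed the filter through OCM1, and replicates 2 and 3 of both MUM2B groups lay under that signal.

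For ECM1 the line difference was 2.07 ± 0.57 (SE) in wild type, with limma's adjusted p = 0.0197, and 3.14 ± 0.57 in CANT1 cells, with adjusted p = 0.00210. With every MUM2B value under a signal of 100 raised to it, ECM1 was at least 3.62-fold higher in wild type OCM1 and at least 7.96-fold higher in CANT1 OCM1. In wild type it was 0.13 on replicate 1 and 3.05 ± 0.19 on replicates 2 and 3 (limma adjusted p = 5.51e-08). Without wild type OCM1 replicate 1 the wild type difference was 3.03 ± 0.20 (limma adjusted p = 2.49e-06). The wild type call was lost, at an adjusted p of 0.0632 to 0.0770, without replicate 2 or 3 of wild type MUM2B or replicate 2 or 3 of wild type OCM1 (values of 1.56 to 2.00), with only the arrays compared in the fit (2.07, adjusted p = 0.0711), and with the 3 reference genes of the assay as the scale (1.43, adjusted p = 0.0606). The 5 ECM1 probe sets were not alike: on replicates 2 and 3 the wild type difference was 3.05 on the brightest and 1.45, 0.43, 0.32 and 0.27 on the others.

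HTR2B encodes the serotonin 2B receptor, which couples to Gq. Its level was 5.49 to 5.73 on all 12 arrays and its signal 12.95 to 20.98. No array reached 100, so the gene was not tested and the groups overlapped. Fitted without the filter, the line difference was 0.06 ± 0.06 in wild type (limma adjusted p = 0.559) and -0.04 ± 0.06 in CANT1 cells (limma adjusted p = 0.666). A difference was not detectable at this signal.

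RAB31, a small GTPase of endosomal transport, was detected on all arrays. Wild type MUM2B gave 10.00, 9.05 and 9.35, and CANT1 MUM2B 9.96, 9.62 and 9.79. Wild type OCM1 gave 10.03, 10.95 and 10.95, and CANT1 OCM1 10.88, 10.65 and 10.78. The lines did not overlap, but wild type OCM1 replicate 1 was only 0.04 above wild type MUM2B replicate 1.

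RAB31 was higher in OCM1 by 1.18 ± 0.29 in wild type (2.26-fold, limma adjusted p = 0.0124) and by 0.98 ± 0.29 in CANT1 cells (1.98-fold, limma adjusted p = 0.0241). Without wild type OCM1 replicate 1 these were 1.62 ± 0.17 (adjusted p = 5.79e-05) and 0.98 ± 0.15 (adjusted p = 0.000478). With the reference genes as the scale, which lowers every OCM1 minus MUM2B difference, both calls were lost, at 0.54 (adjusted p = 0.207) and 0.40 (adjusted p = 0.340). The wild type call was also lost without wild type MUM2B replicate 2 (adjusted p = 0.0532) and without wild type OCM1 replicate 2 (0.0516) or 3 (0.0530), and with only the arrays compared in the fit (1.18, adjusted p = 0.0818). The call in CANT1 cells was lost without replicate 2 or 3 of CANT1 MUM2B or any replicate of CANT1 OCM1 (limma adjusted p of 0.0554 to 0.0870). On the other 3 RAB31 probe sets the wild type difference of replicates 2 and 3 was 1.12 to 1.47, and on the one used 1.75.

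LMCD1, a LIM domain protein that interacts with GATA factors, was the first of the class 2-low genes with a large line difference. Its level was 8.17, 7.50 and 7.91 in wild type MUM2B and 8.01, 8.20 and 8.17 in CANT1 MUM2B. It was 8.37, 10.70 and 10.72 in wild type OCM1 and 10.21, 10.90 and 10.84 in CANT1 OCM1. Every OCM1 array was above every MUM2B array, the nearest being wild type OCM1 replicate 1. The difference was 2.07 ± 0.46 in wild type (4.19-fold, limma adjusted p = 0.00789), 2.81 ± 0.24 without that array (adjusted p = 1.35e-05), and 2.52 ± 0.46 in CANT1 cells (5.75-fold, adjusted p = 0.00236). The wild type call was lost with only the arrays compared in the fit (2.07, limma adjusted p = 0.0639). Its 4 probe sets gave 3.01, 1.77, 1.06 and 0.23 in wild type on replicates 2 and 3.

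MTUS1 encodes a microtubule-associated tumour suppressor. Its level was 8.18, 7.42 and 7.60 in wild type MUM2B and 7.63, 7.71 and 7.68 in CANT1 MUM2B. In OCM1 it was 10.04, 11.30 and 11.27 in wild type and 11.50, 11.37 and 11.34 in CANT1 cells. The lines were far apart on every array. The difference was 3.14 ± 0.32 in wild type (8.79-fold, limma adjusted p = 7.26e-05), 3.63 ± 0.17 without wild type OCM1 replicate 1 (adjusted p = 2.32e-07), and 3.73 ± 0.32 in CANT1 cells (13.3-fold, adjusted p = 2.13e-05). All 5 MTUS1 probe sets were higher in wild type OCM1, by 1.98 to 3.77 on replicates 2 and 3.

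ROBO1 encodes a receptor for the SLIT guidance ligands. Its level was 10.60, 9.45 and 9.47 in wild type MUM2B, 10.19, 9.90 and 9.94 in CANT1 MUM2B, 12.32, 11.13 and 11.14 in wild type OCM1, and 11.46, 11.68 and 11.75 in CANT1 OCM1. No OCM1 array overlapped a MUM2B array, and wild type OCM1 replicate 1 was the highest of all. The difference was 1.69 ± 0.28 in wild type (3.23-fold, limma adjusted p = 0.00144) and 1.62 ± 0.28 in CANT1 cells (3.08-fold, adjusted p = 0.00153). Without wild type OCM1 replicate 1 the wild type value was 1.43 ± 0.27 (adjusted p = 0.00211). The probe set used for ROBO1 is of a type that can read related transcripts (an _s_at set), as are those of RAB31 and SATB1. On its other 2 probe sets the wild type difference of replicates 2 and 3 was 1.32 and 0.67, and without such probe sets the wild type call of ROBO1 (0.57, adjusted p = 0.110) and the call of RAB31 in CANT1 cells (0.43, adjusted p = 0.181) were lost.

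SATB1, a nuclear protein that organises chromatin loops, ran the other way, apart from 1 array. Its level was 10.37, 8.24 and 8.38 in wild type MUM2B and 9.20, 9.04 and 9.54 in CANT1 MUM2B. In wild type OCM1 it was 10.50, 5.59 and 5.61, and in CANT1 OCM1 5.69, 6.66 and 7.02. The OCM1 arrays were all below the MUM2B arrays except wild type OCM1 replicate 1, which was above them all. It passed the filter on 7 arrays, the 6 of MUM2B and that one, so it passed through the line where it is high. On the other 5 OCM1 arrays its signal was 16.25 to 97.56, under the minimum, so the size of the differences below is not measured on that side.

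The SATB1 difference was -1.77 ± 1.01 in wild type (limma adjusted p = 0.222) and -2.80 ± 1.01 in CANT1 cells (limma adjusted p = 0.0539), neither of them past the threshold. With 1 array left out, the wild type value ranged from -3.31 to -1.15 and that in CANT1 cells from -3.48 to -1.66. The weakest values came without wild type OCM1 replicate 2 (-1.15, limma adjusted p = 0.513) or 3 (-1.15, adjusted p = 0.517) and without CANT1 OCM1 replicate 1 (-1.66, adjusted p = 0.209). Both differences passed without wild type OCM1 replicate 1 (-3.31 and -2.80, adjusted p = 0.00180 for each), and that in CANT1 cells also without CANT1 MUM2B replicate 1 (-3.48, adjusted p = 0.0466). On replicates 2 and 3 both passed as well (limma adjusted p = 3.31e-08 and 8.63e-08). With only the arrays compared in the fit, the difference in CANT1 cells passed (-2.80, limma adjusted p = 2.63e-05). The wild type difference did not (-1.77, limma adjusted p = 0.0935). With the OCM1 values raised to a signal of 100, SATB1 there was at least 2.41-fold higher in wild type MUM2B and at least 4.74-fold higher in CANT1 MUM2B. Of the 3 SATB1 probe sets, a second gave -1.67 in wild type on replicates 2 and 3, and the third lay at the floor of the array, with levels of 5.52 to 5.62.

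**Figure D3:**
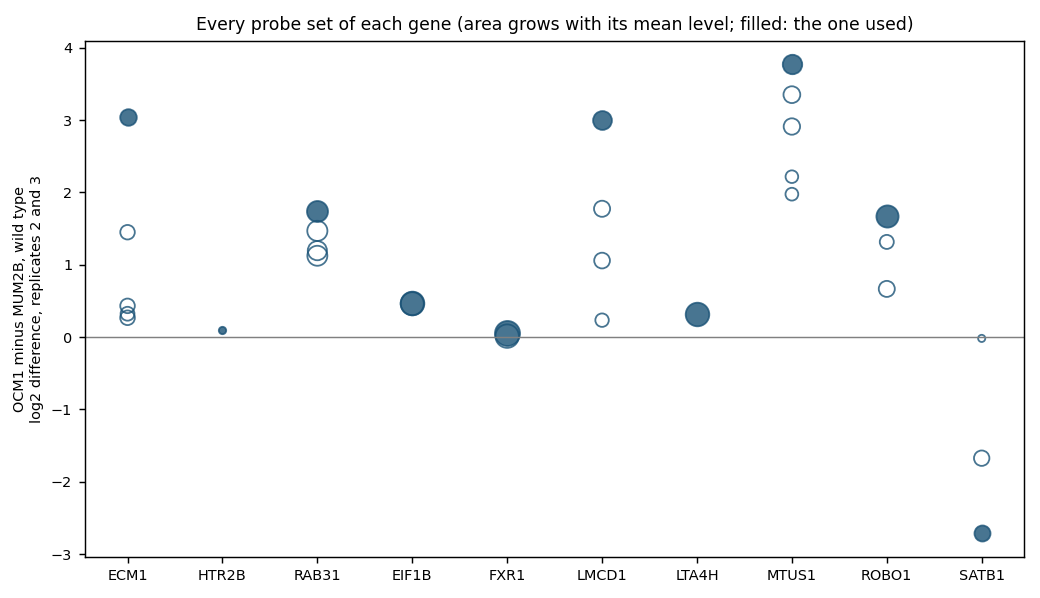
The plot gives the wild type OCM1 minus MUM2B difference on replicates 2 and 3, in log2 units (y axis), for every probe set of each gene (x axis), with a larger area for a brighter probe set and filled circles for the ones used. The 5 ECM1 circles spread from 0.27 to 3.05, and the lowest of the 5 MTUS1 circles is at 1.98.

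EIF1B, FXR1 and LTA4H did not pass the test between the lines on 12 arrays. EIF1B, a relative of the start codon recognition factor EIF1, was at 11.50, 11.14 and 11.12 in wild type MUM2B, 11.10, 11.42 and 11.62 in CANT1 MUM2B, 12.23, 11.56 and 11.64 in wild type OCM1, and 11.44, 12.02 and 12.08 in CANT1 OCM1. Wild type OCM1 lay above wild type MUM2B on every array, and the CANT1 groups overlapped. The difference was 0.56 ± 0.24 (limma adjusted p = 0.113) in wild type and 0.47 ± 0.24 (limma adjusted p = 0.166) in CANT1 cells, with 95% intervals of 0.01 to 1.10 and -0.08 to 1.01. Without wild type OCM1 replicate 1 the wild type difference was 0.27 ± 0.21 (limma adjusted p = 0.349). The difference in CANT1 cells passed without CANT1 OCM1 replicate 1 (0.74, limma adjusted p = 0.0373). With only the arrays compared in the fit both passed (0.56 and 0.47, limma adjusted p = 0.0253 and 0.00497).

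FXR1, an RNA-binding protein related to FMR1, was at 13.18, 12.27 and 12.37 in wild type MUM2B, 12.38, 12.68 and 12.85 in CANT1 MUM2B, 11.66, 12.37 and 12.39 in wild type OCM1, and 11.86, 12.22 and 12.26 in CANT1 OCM1. The wild type groups overlapped, and CANT1 OCM1 lay below CANT1 MUM2B on every array. The difference was -0.47 ± 0.28 in wild type (limma adjusted p = 0.238) and -0.52 ± 0.28 in CANT1 cells (adjusted p = 0.174), with 95% intervals of -1.09 to 0.15 and -1.15 to 0.10. Without wild type OCM1 replicate 1 the wild type difference was -0.22 ± 0.28 (limma adjusted p = 0.580). The difference in CANT1 cells passed without wild type MUM2B replicate 1 (-0.52, limma adjusted p = 0.00396). It also passed with only the arrays compared in the fit (-0.52, limma adjusted p = 0.00164).

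LTA4H, the enzyme that makes leukotriene B4, was at 12.10, 11.07 and 11.17 in wild type MUM2B, 11.11, 11.54 and 11.70 in CANT1 MUM2B, 12.31, 11.44 and 11.44 in wild type OCM1, and 11.15, 11.61 and 11.63 in CANT1 OCM1. All the groups overlapped. The difference was 0.28 ± 0.32 in wild type (limma adjusted p = 0.561) and 0.01 ± 0.32 in CANT1 cells (adjusted p = 0.983), with 95% intervals of -0.44 to 1.00 and -0.71 to 0.73. The LTA4H intervals include differences of either sign. Without wild type OCM1 replicate 1 its wild type difference was -0.01 ± 0.32 (limma adjusted p = 0.986).

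Counted over the 3 and 3 arrays, 6 of the 9 genes were higher in wild type OCM1 with no overlap and 0 were lower, where 19% of all tested genes were higher and 13.7% lower in this way. In CANT1 cells 5 were higher and 2 were lower (FXR1 and SATB1), where the shares were 29.4% and 22.2%. On replicates 2 and 3 alone, 8 of the 9 passed in each line comparison: 7 higher and 1 lower (SATB1) in wild type, and 6 higher and 2 lower (FXR1 and SATB1) in CANT1 cells. ECM1 and SATB1 are in these counts although on those arrays each reached the minimum signal only in the line where it was higher. The shares of all 12105 genes tested on those arrays that passed were 64.7% in wild type (35.2% higher, 29.5% lower) and 66.3% in CANT1 cells (38.2% higher, 28.1% lower).

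In order of group means, ECM1, RAB31, LMCD1, MTUS1 and ROBO1 were low in both MUM2B groups and high in both OCM1 groups, and for these 5 the highest MUM2B group and the lowest OCM1 group did not overlap. Between the CANT1 and wild type groups of a line, neighbours in that order overlapped, except for MTUS1 in OCM1. For HTR2B, EIF1B, FXR1, LTA4H and SATB1, every group overlapped its neighbour in the order of the means. The shares of all genes with these patterns were not counted, so the patterns are not read as particular to these genes.

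With CANT1, none of the 9 genes passed the test in either line when all 12 arrays were used. In MUM2B 0 of 9 passed, as did 0% of all tested genes (limma adjusted p, with 220 genes at an unadjusted p under 0.05), and in OCM1 0 of 9 passed, where 0.118% of all genes did (0.102% higher, 0.0157% lower, with 1177 genes at an unadjusted p under 0.05). The differences of the 9 genes in MUM2B ran from -0.06 (MTUS1) to 0.32 (RAB31), with a median of 0.13 beside -0.01 over all genes. In OCM1 they ran from -0.78 (SATB1) to 1.11 (ECM1), with a median of 0.10 beside 0.00. Several of these values rest on wild type OCM1 replicate 1: without it ECM1 was at 0.15, LMCD1 at -0.02, MTUS1 at 0.04 and SATB1 at 0.76, against 1.11, 0.72, 0.54 and -0.78 with it. RAB31, EIF1B, FXR1, LTA4H and ROBO1 were at -0.31, 0.32, -0.27, 0.02 and 0.37 without it. With it they were at 0.13, 0.04, -0.02, -0.27 and 0.10. With no overlap of the 3 and 3 arrays, 0 genes were higher and 0 lower in MUM2B, where 2.82% and 1.96% of all genes were, and in OCM1 MTUS1 was higher and 0 were lower, where 6.5% and 5% were. The intervals were wide: the 95% interval was -0.16 to 2.38 for ECM1 in OCM1 and -3.04 to 1.49 for SATB1 in OCM1, while for EIF1B in MUM2B it was -0.42 to 0.67.

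Replicate 1 and the other replicates parted on most of these genes. In MUM2B all 9 were lower with CANT1 on replicate 1 and higher on replicates 2 and 3, where 7 passed (all but ECM1 and MTUS1), each of them higher, and 25% of all genes passed there (14.4% higher, 10.7% lower). SATB1 rose by 0.98 ± 0.16 (1.97-fold, limma adjusted p = 0.00198), LTA4H by 0.50 ± 0.09 (adjusted p = 0.00384) and ROBO1 by 0.46 ± 0.09 (adjusted p = 0.00391), and RAB31 by 0.50 ± 0.12 (adjusted p = 0.0100). On replicate 1 the same 4 were at -1.17, -0.99, -0.41 and -0.04. A single array a group leaves no test of replicate 1 itself. The 9 values there come from the same pair of arrays and are not separate observations. How many of all genes turned sign in this way was not counted, so the turn is not read as particular to these genes. The growth descriptions and the ACTB ratio both part replicate 1 from the others, and their parts in this cannot be told apart.

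In OCM1, 3 genes passed on replicates 2 and 3, all higher with CANT1. ROBO1 rose by 0.58 ± 0.09 (limma adjusted p = 0.000914) and EIF1B by 0.45 ± 0.10 (adjusted p = 0.00753). SATB1 was the other, with signals of 16.25 and 16.71 in wild type and 69.05 and 97.56 in CANT1 cells, all under the minimum of 100, so no fold is given for it and its call is not read as a change. The share of all genes was 23.3% (13.7% higher, 9.63% lower). On replicate 1 ROBO1 and EIF1B were at -0.86 and -0.79. For SATB1, replicate 1 sets 10.50 in wild type against 5.69 with CANT1. Of the 9 genes 3 had the same sign on replicate 1 as on replicates 2 and 3, and the share over all genes was not counted.

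**Figure D4:**
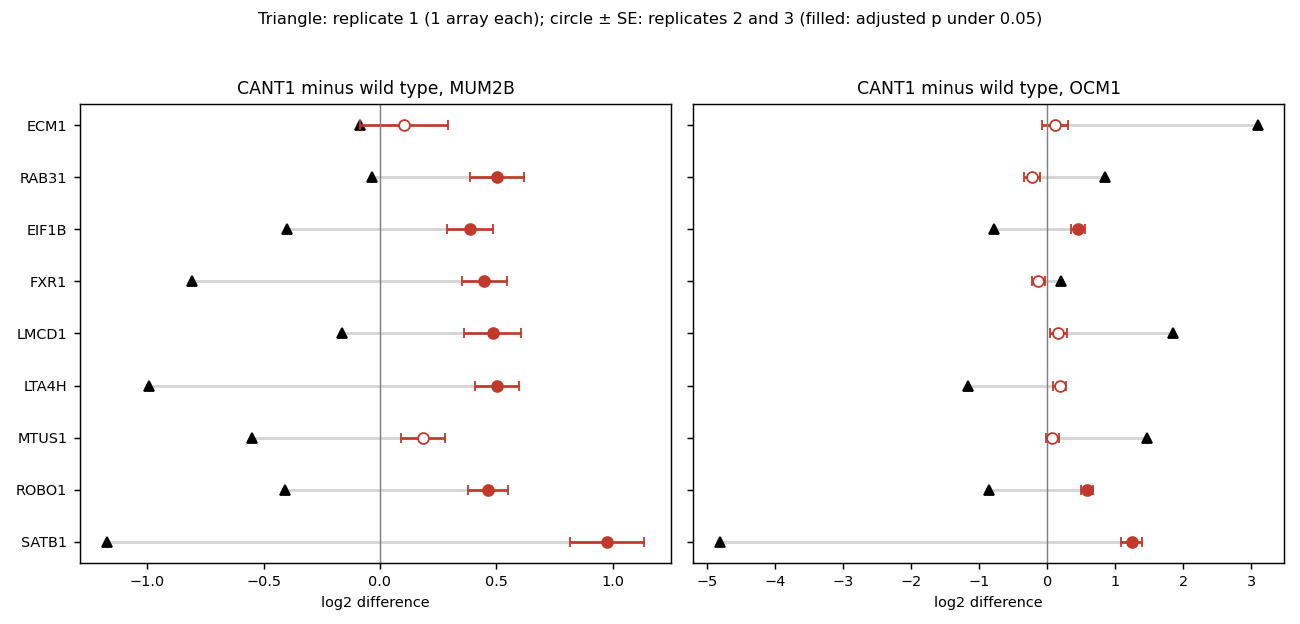
The plot gives the CANT1 minus wild type difference in log2 units (x axis, with different ranges in the panels) for each tested gene (y axis) in MUM2B (left) and OCM1 (right), with triangles for replicate 1 and circles ± SE for replicates 2 and 3 (filled where the adjusted p is under 0.05). In MUM2B every triangle lies left of 0 and every circle right of it, and in OCM1 SATB1 spans -4.81 to 1.24, with signals under 100 on 5 of the 6 OCM1 arrays.

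The difference of the CANT1 effects between the lines passed for none of the 9 genes on 12 arrays, where 0.0472% of all genes passed (0.0393% higher and 0.00786% lower in OCM1, limma, with 634 genes at an unadjusted p under 0.05). On replicates 2 and 3, where 21.9% passed (11.3% higher, 10.6% lower), RAB31 and FXR1 did, both with the lower effect in OCM1. Their effects were 0.50 and 0.45 in MUM2B and -0.23 and -0.14 in OCM1. On replicate 1 the differences between the effects were 0.88 and 1.01, of the opposite sign.

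The 3 reference genes of the assay are meant to be steady between tumours. MRPS21, a mitochondrial ribosomal protein, was 10.71 to 11.26 on MUM2B arrays and 12.75 to 13.00 on OCM1 arrays, so it was higher in OCM1 by 1.84 ± 0.16 in wild type (limma adjusted p = 3.27e-05) and 1.94 ± 0.16 in CANT1 cells (adjusted p = 2.13e-05). SAP130 was higher in wild type OCM1 by 0.50 ± 0.11 (adjusted p = 0.00571), and it was not past the threshold in CANT1 cells (0.12, adjusted p = 0.424). RBM23 was at -0.42 and -0.32, neither past the threshold on 12 arrays, but without wild type OCM1 replicate 1 both passed (-0.79 and -0.32, limma adjusted p = 0.000245 and 0.0170). Scaling the arrays to these 3 genes moved the median of all genes in the wild type comparison to -0.59 and turned the calls to 779 higher and 7194 lower, from 2430 and 1765. Because the 3 genes were themselves higher in OCM1 on average, led by MRPS21, this scale lowers every OCM1 minus MUM2B difference alike. A call lost on it (ECM1 and RAB31 above) or gained on it can follow from that shift alone. On that scale the wild type differences of SAP130 (-0.14), EIF1B (-0.09) and LTA4H (-0.36) turned sign, none past the threshold, and LMCD1, MTUS1 and ROBO1 kept their calls in both line comparisons, while FXR1 (-1.11, limma adjusted p = 0.0182) and SATB1 (-2.41, adjusted p = 0.0476) passed as lower in wild type OCM1, and likewise in CANT1 cells.

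Other genes of the members' pathways, from lists made with the earlier results known, gave the following. Of the uveal melanoma drivers and PRAME, 6 were tested; in wild type 1 was higher and 1 lower in OCM1. Counts of called genes in this and the next lists stand beside the shares over all genes, 19.1% higher and 13.9% lower in wild type and 21.2% and 16.1% in CANT1 cells, and nothing particular to a list is read from them. PRAME, a cancer-testis antigen used beside the class assay, was 5.54 to 5.74 on MUM2B arrays and 10.52 to 12.94 on OCM1 arrays, so it was higher in OCM1 in wild type (limma adjusted p = 2.70e-06) and in CANT1 cells (adjusted p = 1.41e-06). All MUM2B arrays lay under a signal of 100, so PRAME passed the filter only through OCM1, and no support is drawn from these p-values. Against that signal PRAME was at least 31.6-fold higher in wild type OCM1 and at least 50.7-fold higher in CANT1 OCM1. GNAQ, the Gq alpha subunit mutated in many of these tumours, was lower in OCM1, at -0.73 ± 0.14 in wild type (limma adjusted p = 0.00296).

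Of the Gq signalling genes downstream of HTR2B, 10 were tested, and in each line comparison 2 were higher and 4 lower in OCM1. PLCB1, a phospholipase C, was higher by 2.34 ± 0.22 in wild type (limma adjusted p = 4.45e-05) and PRKCA, a protein kinase C, lower (-1.90 ± 0.30, adjusted p = 0.00113). Of the ROBO signalling genes, 10 were tested, 5 higher and 3 lower in wild type and 4 higher and 3 lower in CANT1 cells. ENAH, which binds ROBO receptors and extends actin filaments, was higher by 2.24 ± 0.26 (limma adjusted p = 0.000175), SRGAP2 by 1.11 ± 0.16 (adjusted p = 0.000557), and ABL1, a tyrosine kinase, was lower (-0.99 ± 0.19, adjusted p = 0.00317).

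Among relatives of the class genes, 10 were tested; in wild type 2 were higher (ROBO3 and RNPEP) and 1 lower. ROBO4, the endothelial ROBO receptor, had levels of 10.26 to 11.72 on MUM2B arrays and 6.34 to 8.04 on OCM1 arrays, and was lower in OCM1 in wild type (limma adjusted p = 8.27e-07) and in CANT1 cells (adjusted p = 4.66e-07). ROBO4 passed the filter only through MUM2B, where it was high, so no support is drawn from its p-values. With OCM1 values under a signal of 100 raised to it, ROBO4 was at least 9.63-fold higher in wild type MUM2B and at least 12.4-fold higher in CANT1 MUM2B. The leukotriene genes had 4 tested, of which PLA2G4A, which frees arachidonic acid, was higher in OCM1 by 1.39 ± 0.19 (limma adjusted p = 0.000513). Of 705 tested genes on chromosome 3, 141 were higher and 123 lower in wild type OCM1, with a median of 0.05 beside 0.06 over all genes.

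The genes whose levels ran closest to each class gene over the 12 arrays, by Pearson r of values centred within replicate 1 and within replicates 2 and 3, were MSI2 (0.996) and STK32A (0.994) for ECM1, PACSIN2 (0.988) and SH3BP5 (0.986) for RAB31, SLC67A1 (0.998) and PDGFRL (0.996) for LMCD1, and MYO1D (0.998) and GPM6B (0.997) for MTUS1. ROBO1 was followed by B4GAT1 (0.993) and CELSR2 (0.993), SATB1 by DSE (0.992) and SNAPC5 (0.991), EIF1B by RAB11FIP1 (0.977) and CLK2 (0.973), FXR1 by ZFP36 (0.967) and RRAD (0.965), and LTA4H by ANKRA2 (0.971) and JHY (0.968). All these values share the same 12 arrays and the gap between the lines, and they are a description. Among the 9 genes, ECM1, RAB31, LMCD1 and MTUS1 correlated with each other at 0.928 to 0.977 on the same arrays.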

How the data were processed

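Total RNA of 12 samples of MUM2B and OCM1, cell lines labelled as uveal melanoma, was labelled with biotin and hybridised to 1-colour Affymetrix PrimeView arrays. Per the submitters' processing notes the authors used MAS5, with no version, and raw intensities were not used here. The deposited values were taken as log2 signals. The base is inferred from the values and not stated, and another base would change every fold.

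For each array, 2 was raised to the deposited log2 value and the signal scaled to a 2% trimmed mean of 500 over 49395 probe sets, then taken to log2 after adding 32. After leaving out 102 controls, 44988 probe sets carried a single gene name, 1832 carried several and 2473 carried no name. The first kind gave 18132 genes, each read on its brightest probe set. A gene was tested when 3 or more arrays reached a signal of 100, which left 12715. limma 3.58.1 in R 4.3.3 fitted the 4 groups with a term for replicate 1 against replicates 2 and 3, with 7 residual degrees of freedom and Benjamini-Hochberg adjustment at 0.05 over all genes. Where a group lay under a signal of 100, folds named as "at least" set those values to 100 first, since detection calls were not used here. Replicates 2 and 3 were also fitted alone (12105 genes). With 3 arrays a group, the number of arrays limits the precision. How large a share of true differences of a given size the fit finds on the real arrays is not known.

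The members, the pathway lists and the named genes were chosen with earlier results of these data known. Named genes were the 10 members and 3 reference genes, up to 4 genes a list by smallest p among those that passed, and the 2 genes with the most similar pattern to each member. Alternatives covered the normalization, the offset, the filter, the set term, the replicate block, array weights, an intensity trend, the probe set rule, the arrays fitted and each array left out. Same-numbered arrays of the wild type and CANT1 groups correlated in their deviations at 0.240, 0.465 and 0.0293 in MUM2B and at 0.171, 0.141 and 0.138 in OCM1. Between groups of different lines such correlations ran from 0.0938 to 0.623. Deviations from a mean of 3 arrays also carry the gap between replicate 1 and the others, so these values cannot show pairing. On replicates 2 and 3 alone the correlation was 0.198 in MUM2B and -0.125 in OCM1.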

Additional observations from a re-analysis of the deposited data

Results flagged for a closer look

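On replicates 2 and 3 the effect of CANT1 on RAB31, the endosomal GTPase, differed between the lines: OCM1 minus MUM2B was -0.73 ± 0.16 (SE, limma adjusted p = 0.00985). The same test on FXR1, the RNA-binding protein, gave -0.58 ± 0.14 (limma adjusted p = 0.0114). Both are tests of the difference itself, with 2 arrays a group, and 21.9% of all genes passed it on those arrays. On all 12 arrays they were at -0.20 ± 0.41 and -0.05 ± 0.39 (limma adjusted p = 0.970 and 0.992).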

How the results depend on the processing

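The arrays used moved the counts of class genes past the threshold most. On replicates 2 and 3 alone, 7 passed for CANT1 in MUM2B, 3 for CANT1 in OCM1, 8 in each line comparison and 2 for the difference of the CANT1 effects, against 0, 0, 5, 5 and 0 on 12 arrays. With array weights, whose fit stopped before its tolerance, the counts were 5, 3, 8, 8 and 2. With only the arrays compared, the wild type lines gave 3 and the CANT1 lines 8. Leaving out 1 array gave 3 to 6 and 4 to 6 in the line comparisons and 0 to 0 in the other comparisons. Of 260 alternative fits of the 10 called differences, 240 kept their side of the threshold, 20 lost it and 0 turned sign.

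Values that turned sign belonged to differences that were not past the threshold on 12 arrays, except that of SAP130 in the wild type lines. On replicates 2 and 3 these were 0.19 for MTUS1 with CANT1 in MUM2B, -0.23, 0.18 and 1.24 for RAB31, LTA4H and SATB1 with CANT1 in OCM1, 0.0596 for FXR1 in the wild type lines and -0.0027 for LTA4H in the CANT1 lines. With array weights they were 0.12 for MTUS1 in MUM2B, -0.07, -0.18, 0.17 and 1.26 for ECM1, RAB31, LTA4H and SATB1 in OCM1, and 0.0084 for FXR1 in the wild type lines. With the mean of all probe sets they were -0.10 for ECM1 in MUM2B and 0.0641 for FXR1 in OCM1.

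With the reference genes as the scale, chosen after seeing the data, they were 0.0448 for FXR1 in OCM1, -0.086, -0.36 and -0.14 for EIF1B, LTA4H and SAP130 in the wild type lines, -0.11, -0.57 and -0.46 for them in the CANT1 lines, and 0.0088 for the FXR1 difference of effects. Of these, only the value of SAP130 in the CANT1 lines was past the threshold (limma adjusted p = 0.0147).

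With 1 array left out, values in MUM2B ranged from -0.22 to 0.38 (ECM1), -0.0019 to 0.31 (EIF1B), -0.18 to 0.48 (FXR1), -0.045 to 0.78 (LMCD1), -0.17 to 0.35 (LTA4H), -0.25 to 0.29 (MTUS1) and -0.14 to 0.94 (SATB1). In OCM1 they ranged from -0.10 to 0.32 (EIF1B), -0.27 to 0.0825 (FXR1), -0.0168 to 1.03 (LMCD1), -0.39 to 0.0403 (LTA4H), -0.31 to 0.30 (RAB31), -0.0636 to 0.48 (ROBO1) and -1.40 to 0.76 (SATB1). LTA4H ranged from -0.31 to 0.32 in the CANT1 lines and -0.0088 to 0.62 in the wild type lines, and the differences of effects from -0.51 to 0.16 (FXR1) and -0.64 to 0.0124 (RAB31).

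With the replicate number as a replicate block, 5 genes passed in each line comparison and 0 in the others, and the block changed 0 calls over the 38 differences fitted. Over all genes, the count for CANT1 in OCM1 was 15 and ranged from 1 to 3713, that for CANT1 in MUM2B from 0 to 3032, and those of the lines from 2896 to 8746 in wild type and 3451 to 8781 in CANT1 cells. The cause of these moves was not tested. Dim signals limit ECM1 in MUM2B, SATB1 on 5 of the 6 OCM1 arrays and HTR2B on all arrays.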
